A study of Mus musculus with 12 samples.

Results

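Chromatin accessibility of resting microglia was compared between 14-month-old (middle-aged) and 3-month-old (young) female mice. The comparison held 4 of the 12 ATAC-seq libraries of the series, 2 for each age. Merging the peaks of the 4 deposited lists wherever they overlapped by 1 bp or more gave 42502 regions. A region was gained if both 14-month lists and neither 3-month list held a peak in it, and lost in the reverse case, which gave 658 gained and 272 lost regions. All mice of both groups were wild-type C57BL/6J and had received an intraperitoneal injection of phosphate-buffered saline (PBS), the vehicle for lipopolysaccharide (LPS) in the other libraries. Each library was a pool of 2 to 3 mice, so the spread between libraries is the spread between pools. The methods describe CD11b+ CD45low 7-AAD- cells sorted by flow cytometry, while the extraction protocol in the labels also mentions nuclei from frozen tissue. The other groups used here were 24-month PBS and 3-, 14- and 24-month LPS, also 2 libraries of female wild-type mice each.

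Microglia are the resident macrophages of the brain, seeded from the yolk sac and maintained by signals such as CSF1 and TGF-beta. ATAC-seq marks open chromatin by the insertion of adapters by the Tn5 transposase, and the open sites of a macrophage are largely set by PU.1 together with C/EBP, AP-1, RUNX and other factors. NF-kB is kept in the cytoplasm until an inflammatory stimulus releases it to the nucleus, where it acts at enhancers and promoters of cytokine genes.

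The sequences of 8 regions are shown because the results below turn on them. They are the 3 highest-ranked gained and the 2 highest-ranked lost regions with a protein-coding nearest gene whose 200 bases hold no exon, the highest-ranked region past the threshold of the rank test in each direction, and the gained region near an inflammatory gene that held an NF-kB match. Each is 200 bases of the GRCm38 (mm10) plus strand centred on the summit, in lower case, with matches to the 17 motifs searched in capitals (a PU.1 match near Zdhhc25, and near Nfkbiz, from left to right, E-box, CTCF, AP-1 and NF-kB).
Ppara promoter, gained, chr15:85735301-85735500: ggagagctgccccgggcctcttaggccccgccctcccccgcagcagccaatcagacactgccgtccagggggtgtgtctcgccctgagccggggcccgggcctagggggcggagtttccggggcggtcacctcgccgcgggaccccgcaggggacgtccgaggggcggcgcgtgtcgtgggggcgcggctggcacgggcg
Zdhhc25, intergenic, gained, chr15:88515160-88515359: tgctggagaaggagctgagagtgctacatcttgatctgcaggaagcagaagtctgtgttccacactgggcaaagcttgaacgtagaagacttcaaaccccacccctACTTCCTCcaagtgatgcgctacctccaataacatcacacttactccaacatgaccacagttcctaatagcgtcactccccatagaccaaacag
Baiap2l1 promoter, gained, chr5:144358214-144358413: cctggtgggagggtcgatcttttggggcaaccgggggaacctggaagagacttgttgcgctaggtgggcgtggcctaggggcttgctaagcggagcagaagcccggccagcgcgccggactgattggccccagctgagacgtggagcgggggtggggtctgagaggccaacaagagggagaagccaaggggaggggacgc
Near Nfkbiz, gained, chr16:55852967-55853166: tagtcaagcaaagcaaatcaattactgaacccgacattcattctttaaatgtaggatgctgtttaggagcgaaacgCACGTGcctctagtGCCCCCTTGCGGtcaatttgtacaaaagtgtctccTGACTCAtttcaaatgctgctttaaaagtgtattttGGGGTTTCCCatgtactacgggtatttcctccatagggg
Igf2bp3 intron, lost, chr6:49209051-49209250: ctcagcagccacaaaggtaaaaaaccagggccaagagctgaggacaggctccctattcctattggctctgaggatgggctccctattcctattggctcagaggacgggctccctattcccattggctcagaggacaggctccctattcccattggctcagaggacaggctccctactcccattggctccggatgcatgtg
Cdh23 first intron, lost, chr10:60687199-60687398: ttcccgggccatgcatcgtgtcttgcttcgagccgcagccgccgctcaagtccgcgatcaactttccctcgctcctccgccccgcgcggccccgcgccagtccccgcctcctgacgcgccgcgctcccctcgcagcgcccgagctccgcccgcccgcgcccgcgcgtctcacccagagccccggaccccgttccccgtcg
Pcbp3 promoter, ranked higher, chr10:76961996-76962195: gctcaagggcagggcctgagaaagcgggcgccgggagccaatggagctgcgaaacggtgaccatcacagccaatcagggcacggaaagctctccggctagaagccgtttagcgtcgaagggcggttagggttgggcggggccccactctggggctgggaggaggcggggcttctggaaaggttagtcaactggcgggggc
Gm826, intergenic, ranked lower, chr2:160236959-160237158: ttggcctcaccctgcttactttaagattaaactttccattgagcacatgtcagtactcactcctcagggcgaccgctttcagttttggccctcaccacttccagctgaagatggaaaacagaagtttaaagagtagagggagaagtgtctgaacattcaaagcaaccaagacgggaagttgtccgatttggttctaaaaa
The Ppara stretch had a GC content of 78% with 24 CpG dinucleotides, and the Cdh23 stretch 76.5% with 34. The Igf2bp3 stretch is a tandem repeat, with 73.5% of its bases identical at a shift of 30 bases, against a median of 22.9% over shifts of 10 to 100 bases.

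The 3-month lists held 35573 and 38261 peaks and the 14-month lists 35952 and 40574. The means differed by 1346.0 peaks (38263.0 ± 3268 against 36917.0 ± 1901, SD, n = 2 each), less than the spread between libraries (exact permutation test, two-sided p = 0.667, where 2 against 2 libraries cannot go below 0.333). Without the second 14-month library the difference turned to -965.0 peaks. Depth is unknown because the lists hold no read counts. Lists of the same age were not more alike than lists of different age. The share of regions common to a pair of lists among those in either (Jaccard index) was 0.865 at 3 months and 0.84 at 14 months, and lay between 0.827 and 0.87 for the 4 pairs of different age. Of the 42502 regions, 31922 (75.1%) were called in all 4 lists. A further 2150 regions were called in 1 list of each age and missing from the other list of each, of which 1519 were held by both of the longer lists and 75 by both of the shorter ones.

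The labelled cell type was checked by promoter peaks, counted as a peak within 1 kb of a TSS. Of 25 genes typical of homeostatic microglia, 23 had one in each of the 4 lists, among them Tmem119, P2ry12, Sall1 and Cx3cr1, and the summed area of these peaks was 47719 and 55283 at 3 months and 47123 and 56419 at 14 months. Markers of other cells mostly had no promoter peak. Of 20 lymphocyte markers 1 (Cd5) and of 14 granulocyte markers 1 (Csf3r) had a peak in each list. Of 13 oligodendrocyte markers 4 had one, but Olig1, Olig2 and Sox10 had none, and of 16 markers of border macrophages and monocytes 3 or 4 had one, but Mrc1, Lyve1, Cd163 and Ccr2 had none. For the 3 remaining lists the summed area was higher in both 14-month libraries. It was 0 and 203 against 255 and 753 for 12 astrocyte markers, of which Gfap, Aqp4 and Gja1 had no peak in any of the 4 lists. The values were 988 and 1273 against 1466 and 1703 for 14 neuronal markers, of which Rbfox3, Snap25 and Syt1 had none, and 687 and 760 against 917 and 1183 for 14 endothelial and pericyte markers, of which Cldn5, Cdh5 and Pdgfrb had none. The part of such cells in the gained regions was not tested.

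Gained regions made up 1.55% of all merged regions and lost regions 0.640%. With each list reduced to its 35538 peaks of largest area, the length of the shortest, 552 of 39476 regions were gained (1.40%) and 496 lost (1.26%), so the excess of gained over lost regions in the full lists was mostly gone. Of the 658 gained regions, 340 (51.7%) were gained under both settings, as were 159 (58.5%) of the 272 lost regions. These made up 61.6% and 32.1% of the regions gained and lost at equal length. Most members lay near the limit of detection. Column 7 of the lists was read as the peak area of the caller Genrich (significance summed over the length of a peak), which no header states. It had a minimum of 200 in every list, and the median area of gained regions was 232 and 271 in the 14-month lists. Lost regions had medians of 223 and 241 in the 3-month lists. An area of at least 300 in both calling lists was reached by 44 gained regions (6.69%) and 2 lost regions (0.735%), a limit chosen after seeing the data. Since areas are not normalised between libraries, the percentile of a peak's area within its own list (from 0, lowest, to 100) is used below. The median percentile was 7.47 and 14 for gained and 5.5 and 8.8 for lost regions, and no member lay above 50 in both of its lists.

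The gained region with the highest rank was the promoter of Ppara, which encodes the nuclear receptor that drives fatty acid oxidation (chr15:85735254-85735765, 0.163 kb upstream of the TSS, GC content 75.4%). It stood at the percentiles 46.6 and 60.9 of the 14-month lists and had no peak in either 3-month list. In the 8 libraries that the rule did not use it was called in 8, at 52.1 and 61.4 in the 24-month PBS lists and at 23.2 and 45.1 in the 3-month LPS lists. The Ppara promoter was thus without a peak only in the 2 lists of young PBS mice, an absence that the rule required. Its call in the second 24-month LPS list was near the floor, at 1.34. Calls in all 8 other libraries were shared by 79 of the 658 gained and 16 of the 272 lost regions. The promoter of Rxrg, a retinoid X receptor and so a dimer partner of PPARs, was also gained (chr1:167618026-167618730), at 31.8 and 36.9, and at 56.5 and 64.1 in the 24-month PBS lists. Rxrg had no peak in the 3-month LPS lists either.

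Among the other gained promoters, Baiap2l1, an actin-binding membrane-bending protein, stood at 30.5 and 47 at 14 months and at 57.4 and 74 at 24 months, and was called in all 8 other libraries (chr5:144358082-144358633). Alk, a receptor tyrosine kinase, stood at 29.3 and 42 (chr17:72604638-72604926). The promoter of the zinc finger gene Zkscan2 stood at 35.3 and 39.8 (chr7:123500444-123500972), and a second region in an intron of the same gene at 30.3 and 45.8 (chr7:123487729-123488088). For each of these genes both 24-month PBS lists held the region. Upk1b, a tetraspanin known from bladder epithelium, had its promoter at 34.4 and 51.1 (chr16:38800114-38800536) and at 33 and 37.7 at 24 months, with no peak in any of the 6 LPS lists. Away from promoters, an intergenic region 85 kb from Zdhhc25, a palmitoyltransferase gene, stood at 40.8 and 48.5 (chr15:88515112-88515388). A region in the 3' UTR of a Syt2 transcript, a calcium sensor of vesicle release, stood at 39 and 38 and was called in all 8 other libraries (chr1:134747351-134748037). A region in the first intron of Kank1, a regulator of the actin cytoskeleton, stood at 27.7 and 45.3 (chr19:25268567-25268862). All 10 of these regions were also called in both 24-month PBS lists.

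The 10 named lost regions ranked lower than the 10 gained ones. The highest lay in an intron of Igf2bp3, an RNA-binding protein (chr6:49209047-49209278, the tandem repeat shown above), at 23.4 and 38.2 in the 3-month lists, and a neighbour in the same intron stood at 20.9 and 18.9 (chr6:49208419-49208642). Neither had a peak in the 24-month PBS lists, and each was called in 2 of the 6 LPS lists. A region in an intron of Slc7a8, with the TSS of Cebpe (a C/EBP factor of granulocyte maturation) nearest, stood at 15.6 and 21.7 and was called in none of the 8 other libraries (chr14:54742425-54742795). The remaining 7 were called again in at least 1 of the 24-month PBS lists. Of 2 regions nearest to the TSS of Lyl1, a basic helix-loop-helix factor of blood cells, the one that overlaps both Lyl1 and Nfix stood at 1.9 and 52.5 (chr8:84703068-84703908) and was called in all 8 other libraries. The other, in the 3' UTR of Nfix, stood at 17.2 and 33.2, and at 47.7 and 51.9 at 24 months (chr8:84706794-84707582). A CpG-rich region in the first intron of Cdh23, a cadherin, stood at 12.3 and 38.4 (chr10:60687056-60687804). Regions in Zfp563, a zinc finger gene, and in an intron of Atp6v0d1 (nearest TSS Hsd11b2, of an enzyme that inactivates glucocorticoids) stood at 11.8 and 35 and at 24.5 and 16.9. A region downstream of Egr1, an immediate early gene, stood at 2.01 and 40.4, and lay 112 bp from a region that a 14-month list did hold. A region in an intron of Pex13 with the TSS of Pus10, a pseudouridine synthase gene, nearest stood at 19.3 and 17.9 and was called in all 8 other libraries.

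**Figure D1:**
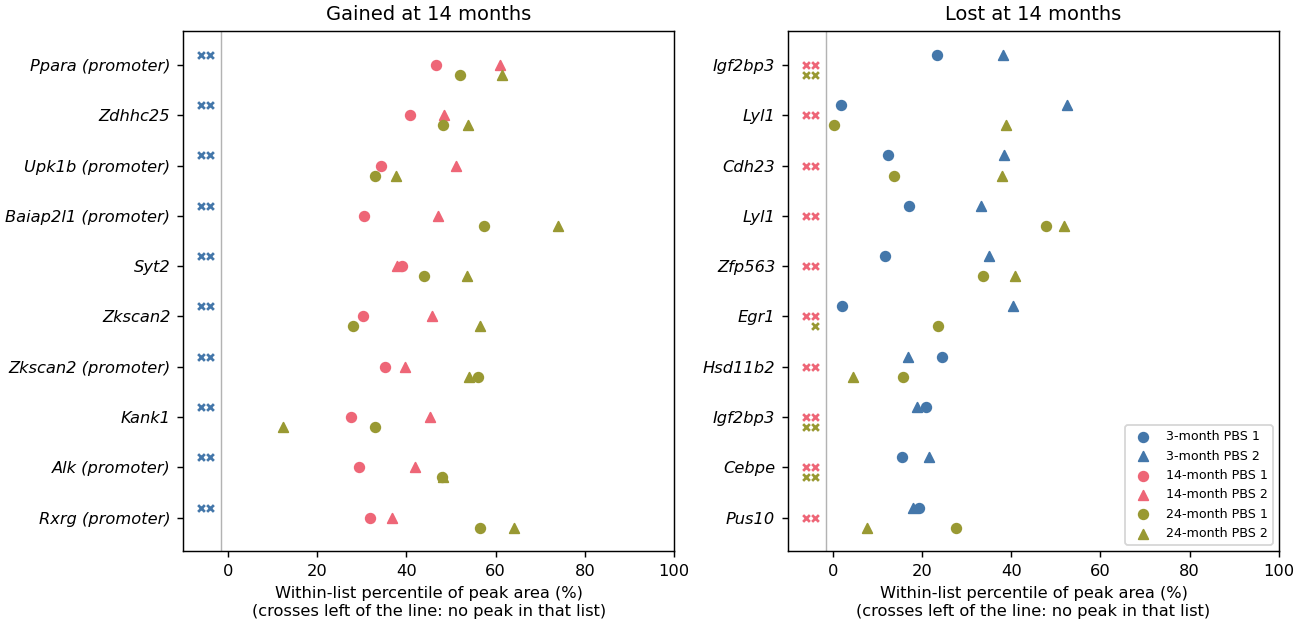
Within-list percentile of peak area (horizontal axis, %) of the 10 gained and the 10 lost regions with the highest mean percentile in their calling lists among those with a protein-coding nearest gene that also held at equal list length, labelled by that gene, in the 6 PBS libraries (circles, replicate 1; triangles, replicate 2; crosses, no peak in that list). All 10 gained regions have points at 24 months, from 12.3 for Kank1 to 74 for Baiap2l1, whereas the lost regions of Igf2bp3 and Cebpe have only crosses there.

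In percentage points, calls in the 8 libraries that had no part in the choice differed most between gained and lost regions in the aged PBS mice. Of the 658 gained regions, 67.9% and 81.2% were called in the 24-month PBS libraries, against 42.6% and 54% of the 272 lost regions. Regions that were missing from at least 1 of the 4 lists but neither gained nor lost (9650 regions) lay between them, at 56.7% and 67.7%. These other variable regions mix 4235 held by 1 list, 2150 held by 1 list of each age and 3265 held by 3 lists. Both 24-month PBS lists held 407 gained regions (61.9%) and 83 lost regions (30.5%), against 49.8% of the other variable regions and 85.6% of all merged regions. For gained regions that also held at equal list length the share was 74.4%, and for such lost regions 33.3%. In the second 3-month LPS library the order was the same (50.8% of gained, 45% of other variable and 40.1% of lost regions), but not in the first (51.1%, 49.7% and 52.9%). In the middle-aged LPS libraries, 47.1% and 22.3% of gained regions were called, against 26.5% and 9.56% of lost and 35.7% and 14.8% of the other variable regions. The second 14-month LPS list was the shortest of the series, with 28618 peaks. The change from 3 to 14 months under LPS shares no library with the PBS comparison. In it, 4 of the 658 regions gained under PBS were gained again (0.608%, against 0.114% of the other variable regions and 0.0518% of all 42502 regions), and 50 were lost (7.6%). Of the 272 regions lost under PBS, 0 were gained and 40 were lost (14.7%, against 10.4% of the other variable regions and 4.88% of all). Of gained regions 49 (7.45%) and of lost regions 40 (14.7%) were called in none of the 8 other libraries.

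**Figure D2:**
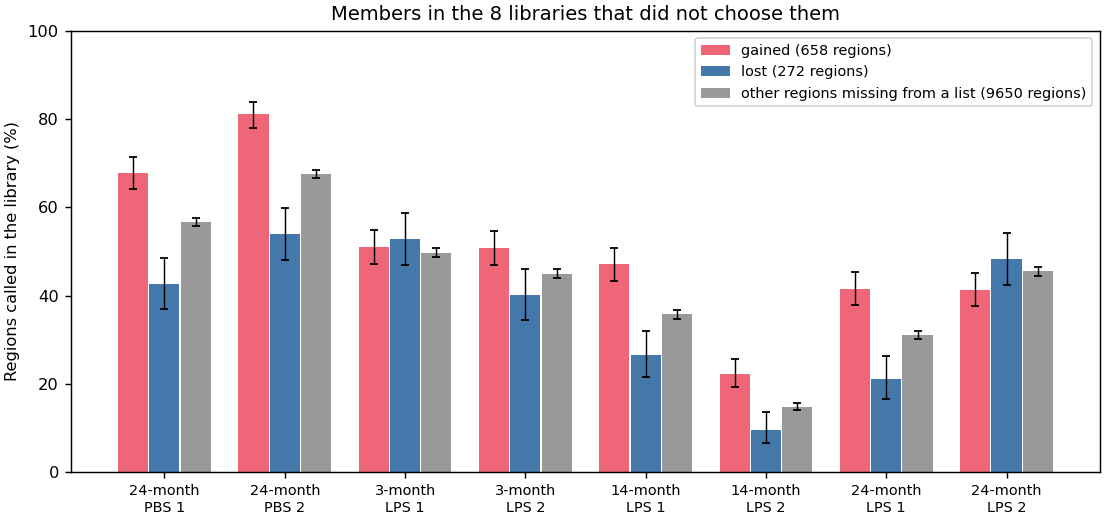
Share of gained, lost and other variable regions (vertical axis, %) with a peak in each of the 8 libraries that did not choose them; error bars are 95% Wilson intervals, which cover counting error only. In both 24-month PBS libraries gained regions (67.9% and 81.2%) stand above and lost regions (42.6% and 54%) below the other variable regions, and in the 24-month LPS libraries the order differs between replicates.

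Gained and lost regions were mostly distal. Of gained regions 16.3% (95% Wilson interval 13.6 to 19.3%) and of lost regions 12.9% (9.4 to 17.4%) lay within 1 kb of a TSS, close to the 16.2% of other variable regions and below the 36.6% of regions called in all 4 lists. First introns held 20.2% and 21.7%, other introns 24% and 33.5%, and intergenic sequence 34.2% and 26.8%. Both sets were narrow, with median widths of 258 and 226 bp against 463 bp for regions called in all 4 lists, and the median GC content around the summit was 50.8% and 48.2%. Of 21911 protein-coding genes, 10677 and 10910 had a promoter peak in the 3-month lists and 10767 and 11093 in the 14-month lists. Of these genes, 60 had one in both 14-month lists and neither 3-month list, and 13 the reverse. These counts are from the full lists, not from lists of equal length. Another region that a list of the other age held lay within 500 bp of 73 gained regions (11.1%) and 16 lost regions (5.88%), so these lay beside sites called at the other age.

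Motif matches, counted within 150 bp of the summit on both strands, differed most between gained and lost regions for NF-kB. A match was present in 68 gained regions (10.3%) and 8 lost regions (2.94%), against 5.54% of other variable regions and 6.12% of all regions. For members that held at equal list length the shares were 12.4% and 1.26%. AP-1 (TGANTCA), the site of FOS-JUN dimers, occurred in 14.4% of gained regions. Lost regions held it in 10.3%, other variable regions in 10.9% and all regions in 10.3%. C/EBP (TTGCNNAA) went the other way, with 13.1% of gained and 18% of lost regions against 12.9% and 12.1%. CTCF, the insulator protein, had a match in 10.8% and 14.3% of them against 9.83% and 8.14%, but at equal list length in 5% and 10.7%. PU.1 (GAGGAAGT), the lineage factor of macrophages, did not set the groups apart, at 10.6% and 10.3% against 11.4% of all regions. ETS (CCGGAAGT) and SP1 (GGGGCGGGG) matches, typical of promoters, were rarer in both sets (0.456% and 0.368%, and 4.41% and 2.21%) than over all regions (2.91% and 8.09%). RUNX (TGTGGTT), MAF (TGCTGAC), E-box (CACGTG) and IRF matches were present in 8.81%, 8.66%, 7.45% and 6.38% of gained regions and in 5.88%, 5.88%, 3.68% and 3.31% of lost regions, against 7.49%, 7.31%, 7.56% and 4.54% of all regions. The remaining motifs, MEF2 (by name), YY1 (AAGATGGC), STAT (TTCCNGGAA), CRE (TGACGTCA), SMAD (GTCTAGAC) and NRF1, were each present in under 3% of either set. PU.1 and ETS share the letters GGAAGT, and a match to one is not a match to the other. A match is a stretch of letters, not a bound site.

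**Figure D3:**
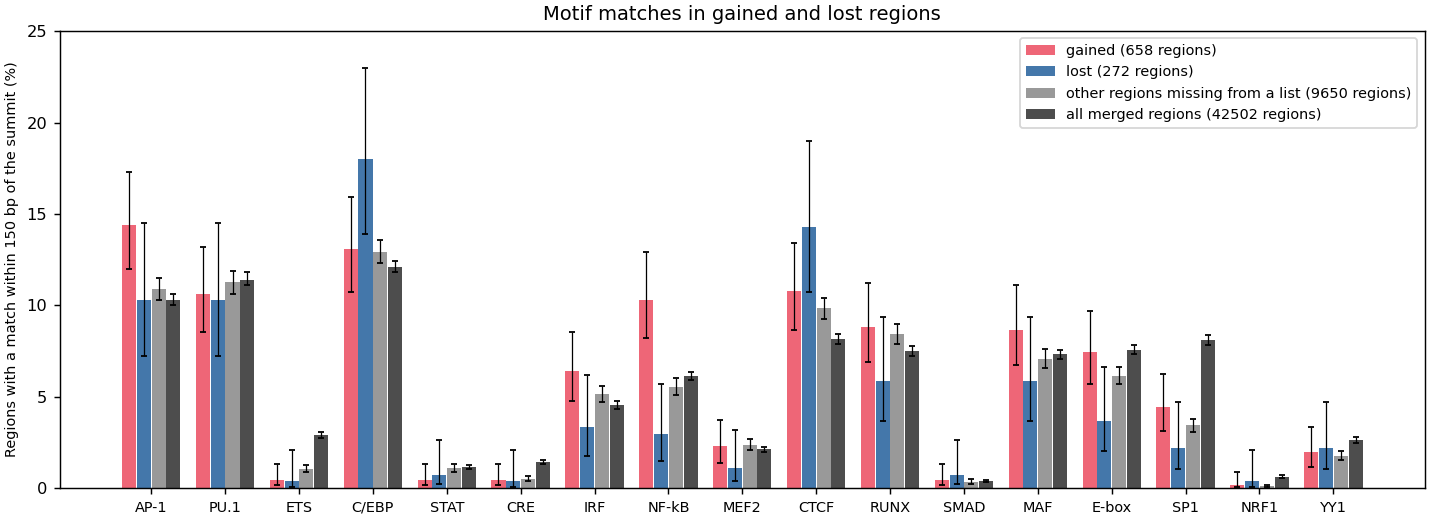
Share of regions with a match to each of the 17 motifs within 150 bp of the summit (vertical axis, %) in gained, lost, other variable and all merged regions; error bars are 95% Wilson intervals over regions, which cover counting error only. NF-kB matches reach 10.3% of gained and 2.94% of lost regions, and C/EBP matches 13.1% and 18%.

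Genes of inflammation were represented among the gained regions. Of 102 regions nearest to 34 inflammatory NF-kB target genes, 4 were gained (3.92%) and 0 lost, against 1.55% and 0.640% of all regions. The promoter of Bcl2a1a, a BCL2-family survival gene, stood at 14.2 and 33.5 at 14 months, at 30.8 and 49.8 at 24 months, and between 21.9 and 51.1 in the 6 LPS lists (chr9:88956810-88957123). Bcl2a1a has near-identical paralogs, so reads there can be shared between copies. The promoter of Ptgs2, the inducible cyclooxygenase, stood at 2.43 and 18.3 and reached 73.1 and 78 in the 3-month LPS lists (chr1:150099637-150100212). A region 12 kb from Nfkbia, which encodes the inhibitor that holds NF-kB in the cytoplasm, stood at 1.32 and 20.6 and at 62.3 and 55 at 24 months (chr12:55480508-55481207). The region 14.2 kb from Nfkbiz, which encodes a nuclear IkB protein, lies in an intron of Nxpe3. It was at 2.19 and 1.94 and was not gained at equal list length (chr16:55852980-55853193). Of the 4 gained regions, only the one near Nfkbiz held an NF-kB match. Of the 34 genes, 26 had a promoter peak in each 3-month list, and 28 and 29 in the 14-month lists.

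Over all regions 1.55% were gained and 0.640% lost, and the regions below are assigned to genes by the nearest TSS. The interferon list had 1 gained region of 48 (2.08%), the promoter of Rsad2 (viperin, an antiviral enzyme). It stood at 10.2 and 23.6 and at 46.4 and 38.4 at 24 months (chr12:26456350-26456691). Immediate early genes had 3 gained regions of 114 (2.63%), at Atf3, Fosl2 and Csrnp1, and 1 lost (0.877%), 6.72 kb from Egr1. Of the 3 gained ones, 2 were not gained at equal list length. TGF-beta signalling, which maintains microglial identity, had 3 gained regions of 96 (3.12%) and 2 lost (2.08%). Gained were introns of Smad3 (59.1 kb from the TSS, 19.8 and 29.4) and Tgfbr2, and an intergenic region 81.6 kb from Itgb8. The lost ones lay in introns of Nrros and Ski. Myeloid transcription factors had 2 gained regions of 224 (0.893%), that of Smad3 and an intergenic one 61.5 kb from Rxra. They had 2 lost (0.893%), the Slc7a8 intron 30.5 kb from Cebpe and an intron of Tfeb. Toll-like receptor 4 signalling had 2 gained regions of 61 (3.28%), near Tlr2 (58 kb away, in an intron of Tmem131l, 22.4 and 22.8) and at Ikbkg. Cell cycle and senescence genes had 2 gained regions of 89 (2.25%), 9.27 kb from Mdm2, which restrains p53 (24.9 and 25.4), and at the promoter of Ccnd2. They had 1 lost (1.12%), 34.5 kb from Ccne1, but 2 gained and 4 lost at equal list length. The promoter of the clock gene Arntl was gained at 14.7 and 20.6 and had no peak at 24 months. The promoter of the chemokine receptor Cxcr4 was lost at 9.59 and 1.99 (not at equal list length) and stood at 60.9 and 62.6 at 24 months. Homeostatic microglial genes had 0 gained regions and 1 lost region of 126 (0.794%), in an exon of Gal3st4. The gained region assigned to Csrnp1 by its TSS also overlaps Cx3cr1, a homeostatic gene. Disease-associated genes had 1 gained region of 77 (1.3%), in an intron of Csf1. Iron handling had 1 gained region of 41 (2.44%), 1.34 kb from Hfe. Antigen presentation, complement and lipid handling genes had 0 gained and 0 lost among 60, 38 and 70 regions. At equal list length 1 complement region was lost. Markers of other cells had shares of gained regions above that of all regions, from few regions. Gained were 1 of 7 regions of astrocyte markers (14.3%, the promoter of Slc1a3), 1 of 10 of neuronal markers (10%, at Rbfox3) and 2 of 19 of endothelial and pericyte markers (10.5%, at Pecam1 and Flt1). Of 31 regions of border macrophage and monocyte markers 1 was gained (3.23%, at Plac8) and 1 lost (3.23%, 8.27 kb from Siglec1). Those of Slc1a3, Flt1 and Plac8 were not gained at equal list length.

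The P-ADEM list holds genes that the study chose because their RNA in microglia correlated positively with age. It had 4 gained (4.44%) and 0 lost of 90 regions, against 1.55% and 0.640% of all regions. The gained ones were 2 regions upstream of Cxcl13, the B-cell chemokine (37.4 and 42.8 kb from the TSS), and the promoters of Bcl2a1a and Ccnd2. Both promoters are also counted in the lists above. The Cxcl13 regions stood at 17.6 and 30.7 and at 5.16 and 13.6 at 14 months, and at 52.1 and 56.3 and at 55.3 and 61.7 at 24 months (chr5:95919440-95919728 and chr5:95914095-95914415). The N-ADEM list, of genes with a negative correlation, had 1 gained region of 89 (1.12%), near Arap3, and 0 lost.

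Ranks of regions called in all 4 lists mostly moved by 10 percentile points or fewer between ages. They were compared with limma on the normal score of the percentile, a scale on which 1 unit is 1 SD of the ranks within a list, with the 24-month PBS libraries in the fit to share the spread. Of 31922 regions, 4 ranked higher (0.0125%) and 2 lower (0.00627%) at 14 months (adjusted p = 0.0412 for each, Benjamini-Hochberg over all regions). In simulated libraries with the same spread, the fit found 16 of 100 regions shifted by 0.5 units and 53 of 100 shifted by 1 unit. Few calls therefore do not mean that few regions shifted. The mean percentile moved by at most 10 points in 89.8% of regions and by over 25 in 0.454%. Values of the 2 ages did not overlap in 6813 regions that stood higher and 3480 that stood lower at 14 months. Of the 6 arrangements of 2 against 2 libraries, 1 in each direction has no overlap, so these counts alone do not show a change with age. At an unadjusted p under 0.05 there were 1245 higher and 268 lower regions, but 1156 and 780 with lists of equal length and 1267 and 923 with quantile-normalised log2 areas, so the imbalance depended on scaling. It also depended on single libraries, with 613 and 286 without the first 3-month library and 517 and 1696, the reverse balance, without the second 14-month library.

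Of the 6 regions past the threshold, 2 rested on a single peak in every list. The promoter of Pcbp3, an RNA-binding poly(C) protein (chr10:76961826-76962345), stood at 73.9 and 71.4 at 3 months and at 91.2 and 92.5 at 14 months, a difference of 0.79 ± 0.06 (SE). The 24-month values were 94.4 and 94, and its peak areas were 957 and 986, then 1661 and 2104, then 2604 and 2476. Pcbp3 was named for its small p in these libraries, so the gap between its groups there is not further evidence. In the LPS libraries, which shared none with this comparison, Pcbp3 stood at 72.5 and 88.4 at 3 months and 92.9 and 89 at 14 months. At 24 months under LPS the values were 94.3 and 72.1. The other was an intronic region 1.66 kb from the TSS of Clec11a, a secreted lectin growth factor (chr7:44304480-44305681), at 94.3 and 92.5 against 98.8 and 98.9 (difference 0.77 ± 0.06 SE). In the LPS libraries the Clec11a groups overlapped, at 93.5 and 97.8 against 98.8 and 97.3. The promoter of Cfap46, a ciliary gene, also held 1 peak in every list. It stood at 20.1 and 18.8 against 59.4 and 62.7, without overlap, but did not pass the threshold (limma, difference 1.14 ± 0.10 SE, adjusted p = 0.0607; chr7:139683736-139684015). Under LPS the Cfap46 groups overlapped, at 22.8 and 49.3 against 58.9 and 43.3.

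The other 4 calls coincided with a change in how the peak caller divided a site. Gm826 (chr2:160236702-160238104, lower by limma, -0.86 ± 0.06 SE) had 1 peak of 1309 and 1337 bp in the 3-month lists and 2 peaks in each 14-month list, and the summed area of the site was 1959 and 2452 against 1626 and 2276, which overlap. B430305J03Rik (chr3:61363244-61364896, -0.87 ± 0.06 SE) likewise went from 1 to 2 peaks, with summed areas of 2601 and 3105 against 2459 and 3310. The promoter of Nrbp1, a pseudokinase gene, and a region 2.46 kb from CT010502.3 ranked higher (0.87 ± 0.07 and 1.01 ± 0.08 SE) and went from 2 peaks to 1. For Nrbp1 the summed areas were 1965 and 2285 against 2146 and 2502, which overlap. For CT010502.3 they were 1009 and 1261 against 1322 and 1723, which do not. With summed areas in the fit, 2 regions ranked higher and 0 lower, and the differences were -0.20 for Gm826, -0.01 for B430305J03Rik, 0.11 for Nrbp1 and 0.34 for CT010502.3, none past the threshold. Pcbp3 and Clec11a had 0.79 and 0.76 (limma adjusted p = 0.0378 each). Neither passed with only the 4 libraries of the comparison or without any 1 of them, where the difference of Pcbp3 lay between 0.75 and 0.84. With all 12 libraries in the limma fit both had an adjusted p = 1, and the 3 regions that passed were those of Nrbp1, CT010502.3 and B430305J03Rik, whose number of peaks changed. Among the 29798 regions with 1 peak in each of the 6 lists, a filter chosen after seeing the data, the same 2 passed. Of the other regions named for their small p, 4 had such a division and Cfap46 did not. Jade2 (-0.92 ± 0.08 SE), a region 1.06 kb from the TSS of C1qc, the complement subunit made by microglia (-0.88 ± 0.08 SE), Nup153 and, in the other direction, Pdcd7 had 1 peak at one age and 2 at the other, and none passed the threshold (limma adjusted p = 0.0593, 0.0607, 0.141 and 0.0505). For C1qc the summed areas were 1780 and 2092 at 3 months and 1438 and 1799 at 14 months.

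**Figure D4:**
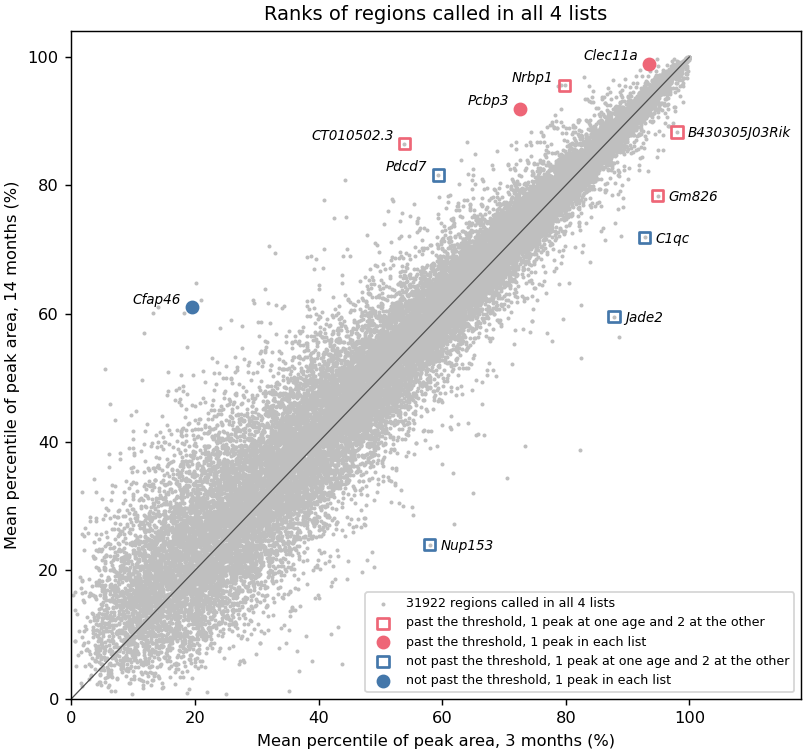
Mean percentile of peak area at 14 months (vertical axis, %) against 3 months (horizontal axis, %) for the 31922 regions called in all 4 lists; large symbols are the 6 regions past the threshold and the others named, filled where every list held 1 peak and open where the number of peaks changed with age. Pcbp3 and Clec11a are the 2 filled symbols past the threshold, and every region named below the diagonal is open.

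By gene list, no region passed the threshold, and the counts at an unadjusted p under 0.05 are given beside those of all regions (3.9% higher and 0.84% lower). P-ADEM genes had 9 higher and 0 lower of 64 regions, among them Cxcl13, Gpr84, Il1rn and H2-D1, and inflammatory NF-kB targets 9 higher and 1 lower of 78, among them Ccl3, Tnfaip3 and Nfkb1. Antigen presentation genes had 5 higher and 0 lower of 46, at Cd74, Cd40, H2-Aa, H2-D1 and H2-K1. Homeostatic genes had 5 higher and 6 lower of 98, with Siglech, Sparc and Rhob among the lower ones, Gpr34 and Mef2a among the higher ones, and regions of Mef2c in both. Genes of 5 transcription factors whose peak counts the study described as falling with age (Mef2a, Mef2c and Mef2d among them) had 5 higher and 1 lower of 25 regions. At equal list length they had 2 higher and 2 lower of 24. Genes of 6 factors described as rising had 3 higher and 1 lower of 30, the lower one at Cebpb. The study took both lists from peaks in these libraries, so neither is independent evidence of a direction. Median rank differences of P-ADEM, NF-kB target, antigen presentation and homeostatic genes were 0.08, 0.06, 0.03 and 0.00, against 0.02 over all regions. At equal list length the counts of the same lists were 8 and 0, 5 and 1, 4 and 0, and 3 and 9, against 3.75% and 2.53% of all regions. These counts rested on single libraries. Without the second 14-month library they were 3 and 2, 3 and 4, 2 and 1, and 3 and 12, against 1.62% and 5.31% of all regions. Without the first 3-month library they were 3 and 1, 4 and 0, 3 and 0, and 2 and 4, against 1.92% and 0.896%. Without the first 14-month library and without the second 3-month library, homeostatic genes had 2 and 3 lower regions, against 0.457% and 0.357% of all. The genes in this paragraph were picked after their values were seen. Median differences of the other lists lay between -0.04 and 0.18, except 0.40 for the 3 ranked regions of astrocyte markers.

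The promoters that the study displayed or followed with age gave 0 gained and 0 lost regions. Cd74, the invariant chain of MHC class II, stood at 59.3 and 61.6 at 3 months, at 68.8 and 70.7 at 14 months and at 80.6 and 79.8 at 24 months, with no overlap between ages (difference 0.25 ± 0.07 SE, limma adjusted p = 0.889). Between 3 and 14 months, 6813 of the 31922 regions called in all 4 lists stood higher and 3480 lower without overlap. Cst7, a cystatin of disease-associated microglia, stood at 24.5 and 41.5 against 45.7 and 51.6 (0.42 ± 0.21 SE, limma adjusted p = 0.975). Spp1, osteopontin, had a promoter peak in the second 14-month list alone (2.19) and in both 24-month lists (30.7 and 32.6). The ferritin gene Fth1 stood at 98.8 and 98.6 against 98.7 and 99, and Cebpb at 93.4 and 94.4 against 94.4 and 94.3. Of 3 promoter regions of Mef2c, a factor of microglial restraint, the one nearest the TSS stood lower at 14 months, at 78.1 and 80.7 against 63.5 and 74.6. The other 2 stood higher. The one 0.75 kb upstream was at 63.6 and 65.5 against 68.9 and 67.8, and the one 0.796 kb downstream at 15.2 and 21.5 against 32.6 and 35.5 (limma adjusted p = 0.975 for all 3). The study described peak counts as rising with age for Cebpb and falling for Mef2c, from read counts that these lists do not hold. Axl had no promoter region in the 4 lists.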

How the data were processed

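ATAC-seq peak lists of 12 libraries of female mouse microglia were used, 4 of them for the comparison. According to the methods and the submitters' processing notes, the authors trimmed reads with cutadapt 2.8, aligned them to mm10 with Bowtie2 2.4.1 and called peaks per library with Genrich. Column 7 of the deposited lists is a score, read here as Genrich's peak area (significance summed along the peak) although the lists have no header, and column 8 holds the deposited -log10 p of the summit; neither is normalised between libraries. Read counts are not part of these lists, which leaves depth unknown. No count model was used, and a region without a peak may still be open below the limit of detection. DESeq2 was used by the authors only.

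After removal of 29 to 40 peaks per list on contigs other than chromosomes 1 to 19, X and Y, peaks were merged over a minimum overlap of 1 bp. Regions were annotated with GENCODE M21 (promoter, within 1 kb of a TSS). Ranks were compared with limma 3.58.1 (R 4.3.3; mean-variance trend, 6 PBS libraries, Benjamini-Hochberg threshold 0.05), after tests on simulated data. Other steps used Python 3.11.15, NumPy 2.4.6, pandas 2.3.3 and SciPy 1.17.1. Equal length meant the 35538 peaks of largest area per list. The 27 gene lists held 536 genes, of which 5 were not in the annotation, and the 17 motifs were searched within 150 bp of the summit. The p-values measure the spread between pooled libraries.

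The members and lists were chosen with earlier results of these data known. Named were the 10 gained and 10 lost regions with a protein-coding nearest gene and the highest mean percentile that also held at equal length, the 5 of smallest p in each direction of the rank test, members nearest to listed genes (at most 4 per list and direction), and the promoters of Axl, Cd74, Cst7, Spp1, Fth1, Cebpb and Mef2c. CT010502.3, a pseudogene, was named because it passed the threshold. The alternatives covered list length, scaling, the libraries fitted, overlap, windows and each library left out.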

Additional observations from a re-analysis of the deposited data

How the results depend on the processing

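The number of lost regions was 496 at equal list length. With an area of at least 300 in both calling lists, chosen after seeing the data, 44 gained and 2 lost regions were left. Leaving out 1 library gave 987 to 3309 gained and 435 to 1586 lost regions, since fewer lists then have to meet the rule. Lost exceeded gained regions without the first 3-month library (1004 gained, 1245 lost) and without the second 14-month library (987 and 1586). The promoter shares were 14.7 to 17.6% and 10.1 to 15.2%. Promoters of 3 kb held 30.5% of gained and 25.4% of lost regions. The difference in peak number lay between -965.0 and 3657.0 with 1 library left out. Gained and lost counts stayed within 1.5 times without the lowest 10% of areas (588 and 223), and with all 12 lists merged (628 and 270). Requiring an overlap of 50% of a region or of a peak could not differ, because a merged region holds each of its peaks whole. Among the alternatives added after seeing the data, leaving out members within 500 bp of a region of the other age gave 585 and 256.

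The numbers of regions ranked higher and lower by limma (4 and 2) were 0 and 0 with only the 4 libraries compared (1001 and 221 at an unadjusted p under 0.05), 2 and 1 with all 12 libraries, 17 and 7 with quantile-normalised log2 areas, 2 and 0 with summed areas, 30 and 1 with summit significance, 14 and 5 at equal list length, 10 and 4 for regions in at least 3 of 4 lists, and 2 and 0 for regions with 1 peak in each list (added). Leaving out 1 library gave 0 to 0 higher and 0 to 7 lower regions. The higher share of calls was 66.7%, but 96.8% with summit significance and 100% with summed areas. The rank difference of Pdcd7 turned to -0.04 with summit significance. The cause of these differences was not tested, except that summed areas remove the division of a site into several peaks.

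Replicate numbers do not pair the libraries, since the labels tie them to no shared litter, batch or day. The differences between replicates 2 and 1 at 3 and at 14 months correlated across regions with r = 0.17, over 31922 regions that are not independent. With the number as a replicate block, 6 regions ranked higher and 3 lower. Depth limits all statements on absent peaks.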
